A study of Mus musculus with 6 samples.

Results

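Described here are 6 genes of the Wnt pathway: the secreted antagonists Frzb, Sfrp1 and Dkk3, the receptor genes Fzd2 and Fzd7, and Tcf7l2, a nuclear factor at the end of the pathway. They are 6 of 9490 genes with a row of their own in the table, and each has a single row that carries only its symbol. They were selected on their log2 values on these same arrays, as Wnt genes that an earlier analysis had called lower in TNE than in TPIN. Their differences are therefore a description with no test.

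RNA was measured on 6 single-colour arrays, 1 per culture of cancer stem-like cells. All of them came from prostates of TRAMP mice, which carry a transgene that expresses a viral oncogene in prostate epithelium. The 3 TNE samples are from mice with neuroendocrine tumours, whose age the labels do not give. The 3 TPIN samples are from mice of 10 to 11 weeks with prostate intraepithelial neoplasia. All 6 were grown in serum-free medium with EGF and FGF2, and no further treatment or genotype is given. Cultured cells were measured, not the tumours, and whether the cultures of a group come from separate mice is not given. TNE is named by the titles and cell type labels, while another label calls all 6 samples intraepithelial neoplasia. Values are log2 expression made by RMA, a method that corrects background and brings the arrays to 1 scale. A difference of 1 between groups is therefore a doubling on that scale.

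Wnt proteins are secreted lipid-modified ligands that bind Frizzled receptors on the cell surface. Together with a co-receptor, this binding keeps beta-catenin from being degraded, and beta-catenin then activates genes in the nucleus with DNA-binding factors of the TCF and LEF family. Secreted Frizzled-related proteins carry a Wnt-binding domain like that of the receptors and can hold ligand away from them. Frzb and Sfrp1 belong to that group, and Dkk3 is the divergent member of the Dickkopf family. In the developing prostate Wnt signals pass between stroma and epithelium, and Sfrp1 is known as a stromal product there.

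Sequence before the start site was held for 3 of the 6 genes, in 4 windows of 250 bases, 1 each for Frzb and Fzd7 and 2 for Tcf7l2. That these 3 genes were lower together in TNE was fixed by their choice, and regulation by Tcf7l2 was not tested. The windows were searched on both strands for CTTTGA and CTTTGT, forms of a short core sequence that TCF and LEF factors such as Tcf7l2 bind. They are from RefSeq on GRCm38.p6: chr2:80447397-80447646 on the minus strand for Frzb, chr1:59481897-59482146 on the plus strand for Fzd7, and chr19:55741560-55741809 and chr19:55895071-55895320 on the plus strand for Tcf7l2. Each runs 5′ to 3′ along its gene and ends just before the start site, and capitals mark the core or its reverse complement.
Frzb: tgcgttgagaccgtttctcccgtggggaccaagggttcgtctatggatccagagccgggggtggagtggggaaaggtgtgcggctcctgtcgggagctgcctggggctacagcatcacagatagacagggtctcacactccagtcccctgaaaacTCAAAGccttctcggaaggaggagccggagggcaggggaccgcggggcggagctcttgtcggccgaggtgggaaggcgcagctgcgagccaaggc
Fzd7: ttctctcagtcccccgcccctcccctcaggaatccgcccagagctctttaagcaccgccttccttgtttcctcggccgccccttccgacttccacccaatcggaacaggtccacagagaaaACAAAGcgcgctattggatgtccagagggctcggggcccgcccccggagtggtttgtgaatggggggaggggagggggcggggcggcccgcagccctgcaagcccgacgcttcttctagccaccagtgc
Tcf7l2, upstream start: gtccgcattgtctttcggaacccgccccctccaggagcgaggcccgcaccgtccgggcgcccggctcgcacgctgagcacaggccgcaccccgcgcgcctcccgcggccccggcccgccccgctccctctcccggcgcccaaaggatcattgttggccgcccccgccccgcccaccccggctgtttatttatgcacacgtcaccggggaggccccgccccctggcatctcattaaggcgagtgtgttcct
Tcf7l2, downstream start: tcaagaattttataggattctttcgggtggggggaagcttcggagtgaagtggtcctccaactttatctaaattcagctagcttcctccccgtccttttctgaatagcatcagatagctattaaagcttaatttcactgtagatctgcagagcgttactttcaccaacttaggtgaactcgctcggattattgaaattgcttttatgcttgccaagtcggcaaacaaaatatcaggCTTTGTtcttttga
The Frzb window holds 1 CTTTGA, read on the opposite strand, 95 bases before the start site. The Fzd7 window holds 1 CTTTGT on the opposite strand, 129 bases before the start site. The downstream window of Tcf7l2 holds 1 CTTTGT, 14 bases before its start, and the upstream window has no match to either form. Of all 32851 windows of this length, 27.6% hold at least 1 of the 2 forms, 13.8% CTTTGA and 16.5% CTTTGT. The GC box GGGCGG, found in 32.7% of all windows, occurs once in the Frzb window and 6 times each in the Fzd7 window and the upstream Tcf7l2 window, counted on both strands with overlaps of 1 base between neighbours. TATAAA, found in 12.4% of all windows, occurs once, on the opposite strand of the downstream Tcf7l2 window, 242 bases before the start. GC content is 64.4% for Frzb, 65.2% for Fzd7 and 72.8% for the upstream Tcf7l2 window, against 40.8% for the downstream one and a median of 52.4% over all windows. A match of letters is a description and not evidence of binding.

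All 6 genes were lower in TNE than in TPIN, and for none did the groups overlap. Among all 9490 genes, 10.2% passed the limma test as lower in TNE, and 20.5% had every TNE array below every TPIN array. The median difference over all genes was -0.02. The choice of the 6 genes fixed their direction, so their count is not read against these shares. In size they ran from Frzb, the most different, through Sfrp1, Dkk3, Fzd2 and Fzd7 to Tcf7l2. The antagonists thus had the 3 largest differences of the 6. In the same arrays, 16 markers of smooth muscle and fibroblasts had a lower mean level, at 7.97 ± 0.43 in TNE and 11.43 ± 0.14 in TPIN (SD, n = 3 each), and its part in the result was not tested. In RNA from whole cultures, fewer cells of a type and less RNA per cell cannot be told apart.

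Frzb, also called secreted Frizzled-related protein 3, had 6.36, 6.82 and 6.26 in TNE and 11.96, 12.32 and 11.76 in TPIN. The highest TNE array lay 4.94 below the lowest TPIN array, and within each group the 3 arrays spread over 0.56. The mean difference was -5.53 (SE 0.29), or 46.3-fold lower in TNE, the 10th most negative of all 9490 genes.

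Sfrp1, the other secreted Frizzled-related protein among the 6 genes, had 6.31, 5.92 and 8.20 in TNE and 12.41, 9.06 and 11.65 in TPIN. TNE replicate 3 and TPIN replicate 2 approached each other to within 0.86, so the separation of the groups rested on a narrow margin. The spread within groups, a pooled SD of 1.52, was above that of 98.2% of genes, where the median gene had 0.42. The mean difference was -4.23 (SE 0.92), or 18.8-fold lower in TNE. It moved to -5.22 when TPIN replicate 2 was left out, to -4.93 when TNE replicate 3 was and to -3.55 when TPIN replicate 1 was, changes of over 1.5 times in the fold.

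Dkk3 had 6.71, 6.94 and 7.58 in TNE and 10.42, 9.39 and 10.81 in TPIN. The nearest arrays were again TNE replicate 3 and TPIN replicate 2, as for Sfrp1, but 1.81 apart. The mean difference was -3.13 (SE 0.43), or 8.74-fold lower in TNE. Unlike the related Dickkopf proteins, Dkk3 is not established as an inhibitor that acts through the Wnt co-receptors.

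**Figure D1:**
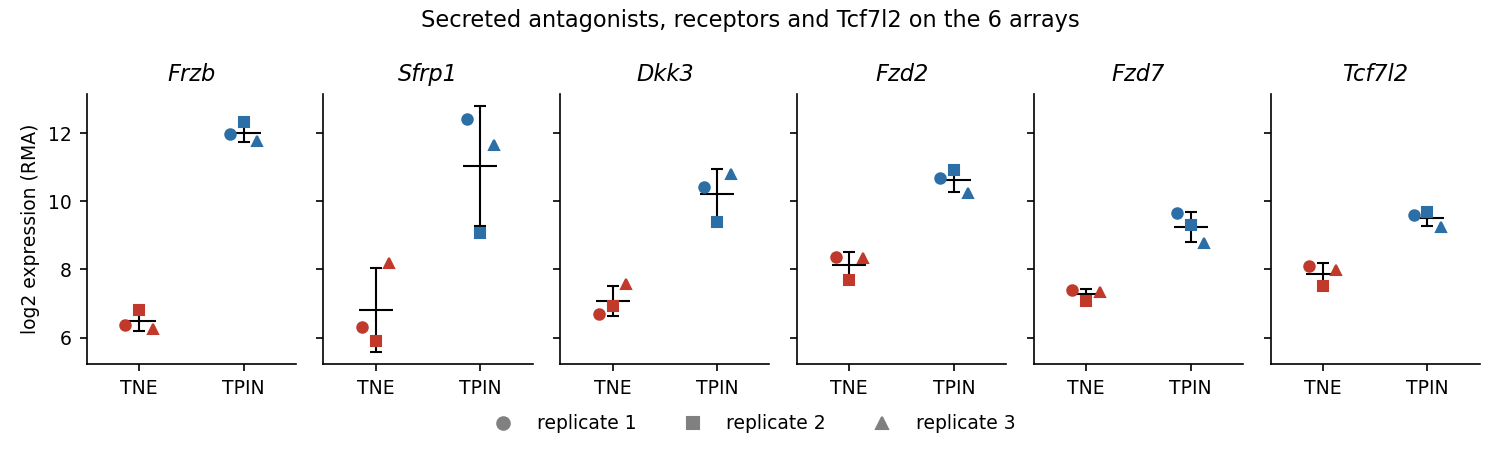
Log2 expression (RMA) of the 6 genes on each array, with TNE in red on the left and TPIN in blue on the right of each panel. Symbols stand for replicates, the long bar for the group mean and the whiskers for the SD (n = 3). The Frzb arrays are 4.94 apart between groups at their closest and the Sfrp1 arrays 0.86.

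Fzd2 and Fzd7 encode closely related Frizzled receptors that, with Fzd1, form 1 branch of the family. Fzd2 had 8.38, 7.70 and 8.34 in TNE and 10.67, 10.92 and 10.24 in TPIN. All TPIN arrays were at least 1.86 above every TNE array, and the mean difference was -2.47 (SE 0.32), or 5.55-fold lower in TNE. Fzd7 had 7.39, 7.08 and 7.34 in TNE and 9.65, 9.30 and 8.77 in TPIN. The TNE arrays lay within 0.31 of each other and the TPIN arrays within 0.88. The mean difference of Fzd7 was -1.97 (SE 0.31), or 3.92-fold lower in TNE. For both receptors TPIN replicate 3 was the lowest TPIN array and TNE replicate 2 the lowest TNE array.

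Tcf7l2, also known as TCF4, binds DNA and recruits beta-catenin to Wnt target genes. It had 8.10, 7.53 and 7.98 in TNE and 9.58, 9.68 and 9.24 in TPIN. Its arrays showed the same order of lowest arrays as the receptors, TNE replicate 2 and TPIN replicate 3. The mean difference was -1.63 (SE 0.29), or 3.10-fold lower in TNE, the smallest of the 6.

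With each array left out in turn, the size of the differences varied, while their sign could not change because the groups do not overlap. They ranged from -5.70 to -5.38 for Frzb, from -5.22 to -3.55 for Sfrp1 and from -3.54 to -2.83 for Dkk3. The ranges were -2.66 to -2.25 for Fzd2, -2.21 to -1.77 for Fzd7 and -1.76 to -1.46 for Tcf7l2. With any array left out, Frzb had the most negative difference of the 6. The ranges of Sfrp1 and Dkk3, of Fzd2 and Fzd7, and of Fzd7 and Tcf7l2 nearly touch, and the differences between neighbours in this order were not tested.

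**Figure D2:**
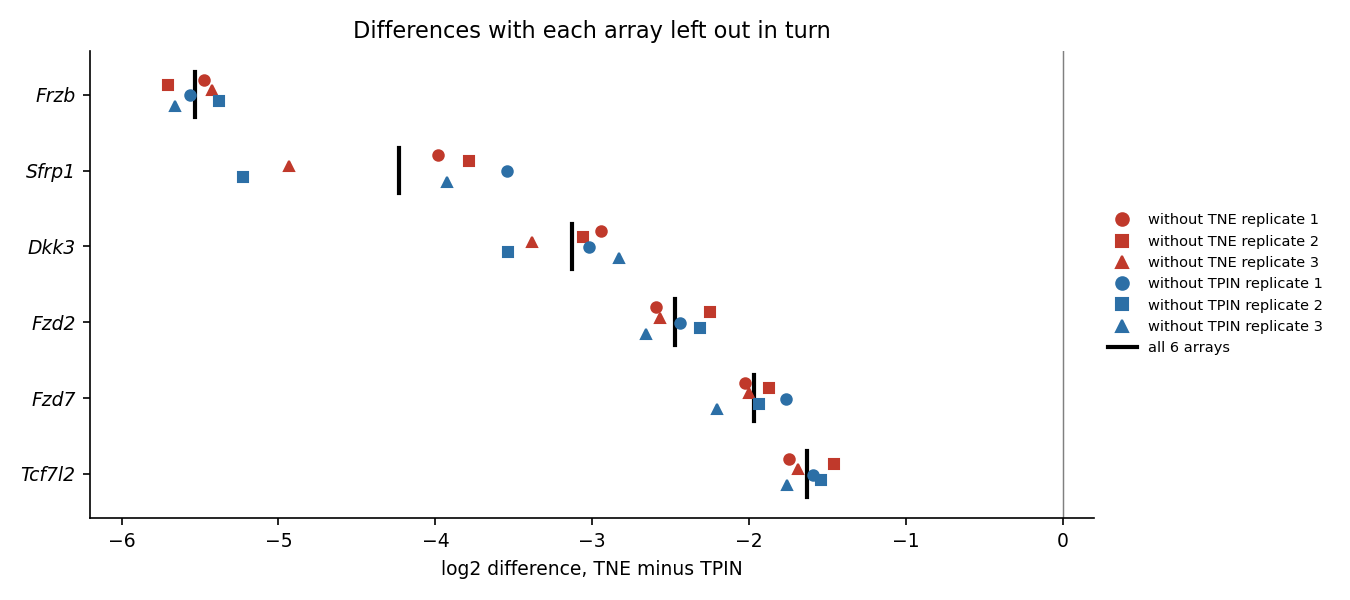
Log2 difference, TNE minus TPIN, of each gene with 1 array left out (symbols, red for a TNE array and blue for a TPIN array) and with all 6 arrays (black bar). Sfrp1 spans -5.22 to -3.55 and Frzb -5.70 to -5.38.

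Some markers of cell types differed between the groups, while others did not pass. Of 18 fibroblast and smooth muscle markers 16 had a row, and 12 of these were lower in TNE, none higher. Their mean level was 7.66, 7.79 and 8.46 in TNE and 11.29, 11.41 and 11.57 in TPIN. TNE replicate 3, where Sfrp1 and Dkk3 were highest among TNE arrays, also had the highest TNE mean of these markers. Frzb was at its lowest on that array, and Fzd2, Fzd7 and Tcf7l2 were highest on TNE replicate 1. In TPIN the marker mean was lowest on replicate 1, where Sfrp1 was highest, and highest on replicate 3, where Dkk3 was highest. Of 8 measured neuroendocrine markers, 4 were higher in TNE and none lower, a count that was 1 with TPIN replicate 2 left out and 2 with TPIN replicate 1 or 3 left out. Of 14 luminal epithelial markers 4 had a row, of which Cd24a was higher in TNE and 3 did not pass, among them the keratin genes Krt8 and Krt18 with differences of -0.33 and -0.66. The third, the transcription factor gene Foxa1, passed as higher without TNE replicate 3, where 2 of the 4 did. With the dimmest 25% of genes left out, Foxa1 was the only luminal marker kept, without Cd24a, and it passed as higher. Of 10 basal markers only Itga6 had a row, and it did not pass but did as higher without TPIN replicate 3 (limma adjusted p = 0.0140). Neither of the 2 measured leukocyte markers, Cd68 and Lyz2, passed, and of 6 endothelial markers 1 was higher and 3 lower. Only 1 endothelial marker was lower with TPIN replicate 2 or 3 or TNE replicate 2 left out. The table gives no detection call, so no marker can be called absent.

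To see which genes followed the same course over the 6 arrays, each gene was centred on its own mean and compared by the root mean square distance on the log2 scale. Raet1d, a ligand of an activating receptor of killer cells, lay nearest to Frzb at 0.24, followed by the mesenchymal transcription factor Prrx1 (0.26) and prostatic acid phosphatase, Acpp (0.35). The nearest genes to Sfrp1 were Mgp, matrix Gla protein (0.61), Islr (0.72) and Srpx2 (0.80). All of them had their highest TNE value on replicate 3 and their lowest TPIN value on replicate 2, as Sfrp1 did. The choice by distance favours such a likeness. For Dkk3 the nearest were the zinc finger gene Zfp521 (0.23), the adhesion molecule gene Icam1 (0.27) and Igfbp6 (0.27). Adamts6, a secreted metalloproteinase, was nearest to Fzd2 at 0.15, before Cercam (0.16) and Atxn1 (0.20). Fzd7 had the smallest distances of the 6, to Adgre5 (0.07), Disp1 (0.08) and Lclat1 (0.11). Values were not scaled, so distances also depend on the size of a gene's difference and on its spread. Fah (0.13), Cers6 (0.14) and Ssc5d (0.16) were nearest to Tcf7l2. Within the 6 genes, Fzd7 and Tcf7l2 were closest to each other, at 0.25, and Fzd2 lay 0.33 from Fzd7, while Frzb lay 1.39 from its nearest, Dkk3.

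The 6 genes were then placed among the other genes of the pathway, from lists of 175 genes by role of which 95 had a row. Of the 89 others, 6 were higher in TNE, 8 were lower and 75 did not pass (limma, adjusted p below 0.05 over all genes). Among all genes 20.5% passed, 10.3% as higher and 10.2% as lower. The 6 genes set aside were chosen as lower, which reduces the counts of lower genes among the 89. These counts are therefore not read against the shares of all genes. The median difference of the 89 was -0.52, and 61 of the 89 had a negative difference. The groups did not overlap for 25 lower and 11 higher genes of the 89. Among all genes, 20.5% had no overlap as lower and 23.3% as higher. Because the 6 genes set aside are all lower without overlap, these counts are not read against those shares either. Leaving out TPIN replicate 3 brought the lower genes to 18, leaving out TPIN replicate 1 or 2 to 5, and leaving out TNE replicate 2 to 4. Higher genes numbered 2 when TPIN replicate 1 or 2 was left out and 3 when TNE replicate 2 was.

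**Figure D3:**
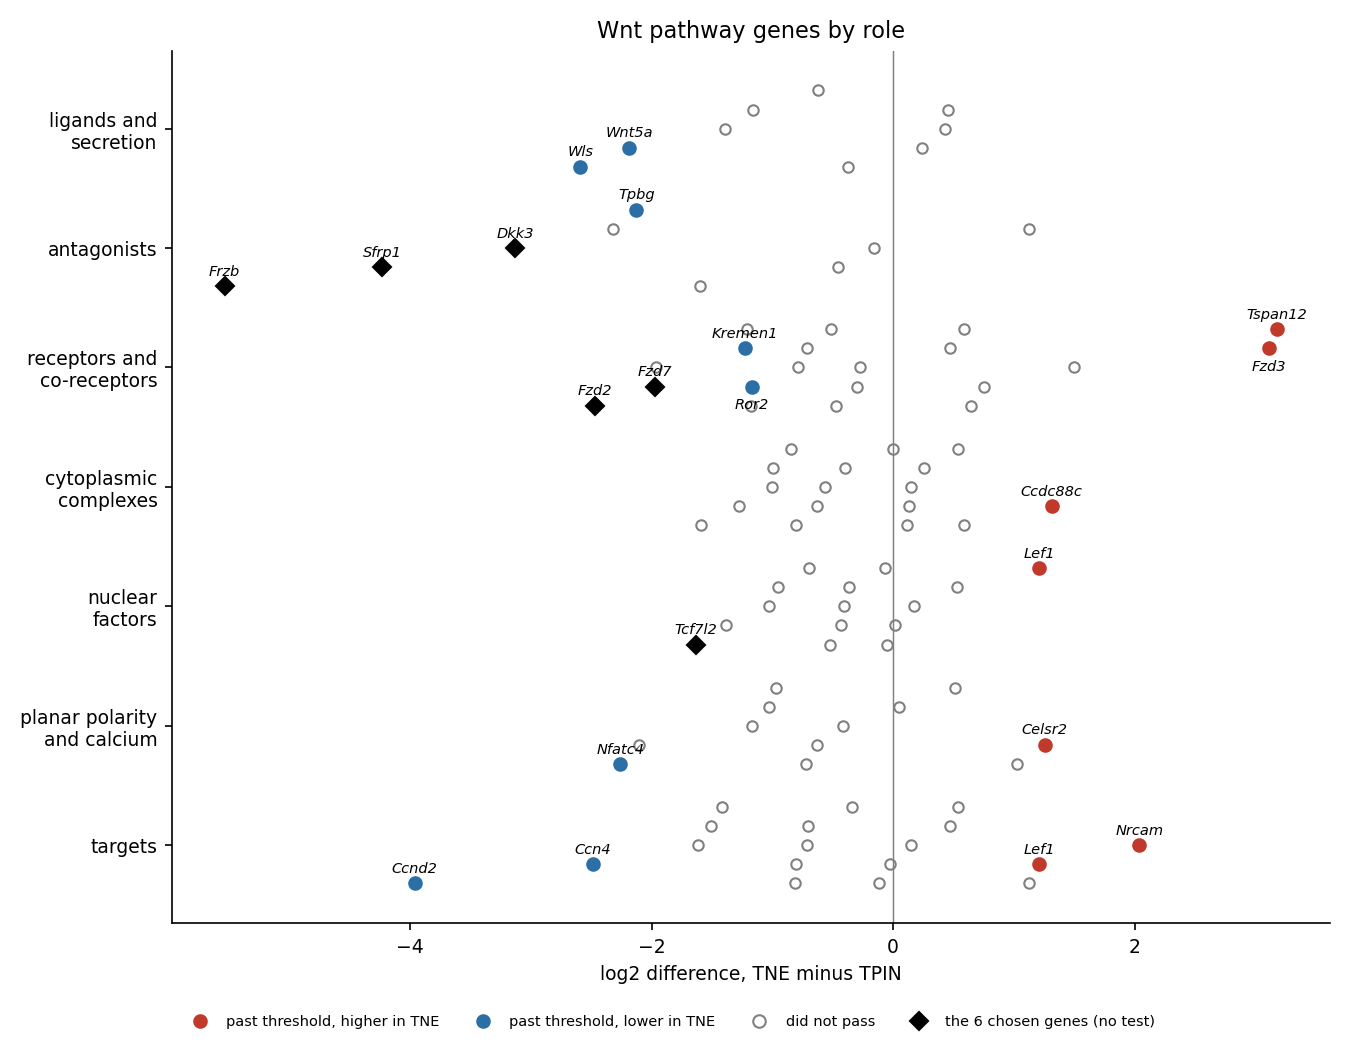
Log2 difference, TNE minus TPIN, of the 95 measured Wnt pathway genes by role; Lef1 and 4 others stand in 2 roles, and vertical position within a role only separates points. Filled circles passed the limma threshold (red higher in TNE, blue lower), open circles did not, and black diamonds are the 6 chosen genes, which were not tested. Fzd3 and Tspan12 stand apart on the right at 3.11 and 3.18.

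Among the antagonists the other measured members of the families of Frzb and Dkk3 did not pass. Since the 6 genes were chosen as called lower, that choice may have fixed this outcome in part. Sfrp2 had 6.32, 6.35 and 7.28 in TNE and 6.80, 6.50 and 7.13 in TPIN, and Sfrp4 averaged 6.53 ± 0.69 in TNE and 6.99 ± 0.38 in TPIN (SD, n = 3 each). The groups overlapped for both genes (limma adjusted p = 0.754 and 0.427). Dkk2 had 11.68, 11.05 and 7.28 in TNE and 10.96, 12.87 and 10.97 in TPIN, with only TNE replicate 3 clearly low (adjusted p = 0.313). Tpbg, a membrane glycoprotein that in zebrafish inhibits Wnt signalling at the co-receptor, was the only other antagonist called. It had 8.56, 7.74 and 8.59 in TNE and 10.30, 10.22 and 10.76 in TPIN, 4.37-fold lower in TNE (log2 difference -2.13, SE 0.33, limma adjusted p = 0.00576), and kept its call under each alternative run. Igfbp4 averaged 8.55 ± 2.36 in TNE and 10.87 ± 1.22 in TPIN (adjusted p = 0.166), and Apcdd1, a membrane inhibitor, 9.25 ± 0.91 in TNE and 8.13 ± 0.41 in TPIN (adjusted p = 0.124). Without TNE replicate 3 both passed, Igfbp4 as lower (adjusted p = 0.0184) and Apcdd1 as higher (0.0242).

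Of the 7 measured Frizzled genes, 2 were chosen as lower, and of the other 5 only Fzd3 passed. Opposite in sign to Fzd2 and Fzd7, Fzd3, a receptor known for its part in axon guidance and planar polarity, was 8.65-fold higher in TNE. It had 9.43, 8.85 and 10.98 in TNE and 7.07, 6.14 and 6.72 in TPIN, with no overlap (log2 difference 3.11, SE 0.55, limma adjusted p = 0.00875). The call held without any 1 array. Fzd6, which is related to Fzd3, had 9.37, 8.70 and 7.25 in TNE and 7.35, 6.65 and 6.82 in TPIN. It did not pass (adjusted p = 0.0785), but did without TNE replicate 3 (0.0147). Fzd4 averaged 7.79 ± 0.07 in TNE and 7.04 ± 0.57 in TPIN (adjusted p = 0.142) and passed as higher without TPIN replicate 3 (0.0395). Fzd1, from the branch of Fzd2 and Fzd7, had 10.03, 8.63 and 8.18 in TNE and 11.70, 9.65 and 11.38 in TPIN. Its groups overlapped and it did not pass (log2 difference -1.96, adjusted p = 0.0666), but it did as lower without TPIN replicate 2 (0.0311) or TNE replicate 1 (0.0313). Fzd8 averaged 7.48 ± 1.17 in TNE and 8.69 ± 0.57 in TPIN (adjusted p = 0.168), and passed as lower without TNE replicate 3 (0.0251).

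**Figure D4:**
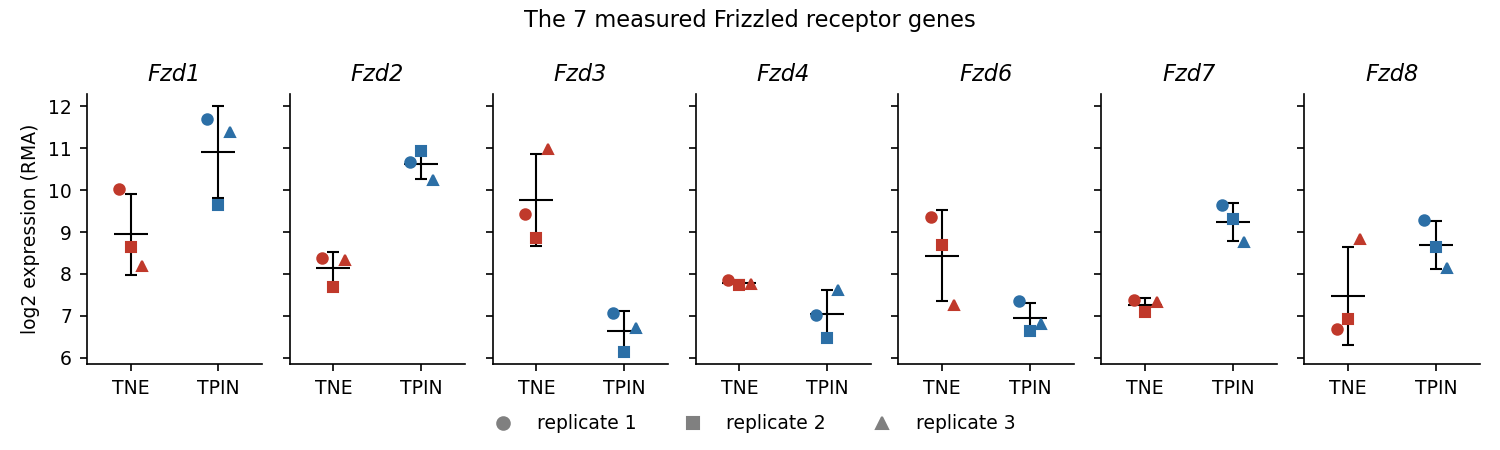
Log2 expression (RMA) of the 7 measured Frizzled genes on each array, TNE in red on the left and TPIN in blue on the right of each panel, with group mean (long bar) and SD (whiskers, n = 3). Fzd2 and Fzd7 are lower in all TNE arrays and Fzd3 is higher in all TNE arrays, while the groups of Fzd1, Fzd6 and Fzd8 overlap.

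Of the 18 receptors and co-receptors outside the 6 genes, 2 were higher, 2 lower and 14 did not pass. Tspan12, a tetraspanin that enhances signalling through Fzd4, was 9.06-fold higher in TNE: 10.66, 9.99 and 8.48 in TNE and 6.82, 5.83 and 6.95 in TPIN (log2 difference 3.18, SE 0.58, limma adjusted p = 0.00970). Kremen1, which binds Dickkopf proteins, averaged 8.46 ± 0.26 in TNE and 9.69 ± 0.43 in TPIN (adjusted p = 0.0331), and Ror2, a receptor kinase for Wnt5a, 9.26 ± 0.55 in TNE and 10.43 ± 0.25 in TPIN (adjusted p = 0.0494). Kremen1 lost its call when replicate 1 or 2 of either group was left out, and Ror2 when any array was. No receptor was lower when TPIN replicate 1 or TNE replicate 2 was left out (0 of 18), and the 1 lower receptor when TPIN replicate 2 or TNE replicate 1 was left out was Fzd1. The co-receptor genes Lrp5 and Lrp6 did not pass: Lrp5 averaged 9.17 ± 0.33 in TNE and 9.47 ± 0.12 in TPIN, and Lrp6 9.93 ± 0.18 in TNE and 10.45 ± 0.38 in TPIN (adjusted p = 0.452 and 0.227). The R-spondin receptors Lgr4 and Lgr6, the kinase-like receptors Ror1, Ryk and Ptk7, the ubiquitin ligase Znrf3, which removes Frizzleds from the surface, Lrp4 and Lypd6 did not pass either, with differences from -1.18 for Lgr6 to 0.64 for Lypd6. Lgr6 and Ryk passed as lower once TPIN replicate 3 was left out (adjusted p = 0.0438 and 0.0484).

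Of 19 Wnt ligand genes 3 had a row. Wnt5a, a ligand mostly linked to signalling without beta-catenin, had 7.77, 7.05 and 6.52 in TNE and 8.10, 10.05 and 9.74 in TPIN. It was 4.55-fold lower in TNE (log2 difference -2.19, SE 0.56, limma adjusted p = 0.0319), but the closest arrays of the groups, TPIN replicate 1 and TNE replicate 1, were only 0.33 apart. Wls, which carries Wnt proteins to the cell surface, had 10.53, 8.96 and 7.10 in TNE and 11.40, 11.18 and 11.79 in TPIN (log2 difference -2.59, SE 0.76, adjusted p = 0.0482). Wnt5a lost its call when replicate 2 or 3 of either group was left out, and Wls when any array other than TNE replicate 1 was. Wnt7b and Wnt16 overlapped between the groups (adjusted p = 0.531 and 0.621). The R-spondins, secreted enhancers of Wnt signalling, did not pass, with differences of -1.39 for Rspo2, -1.16 for Rspo4, -0.37 for Rspo1 and 0.45 for Rspo3, though Rspo4 passed as lower without TPIN replicate 3 (adjusted p = 0.0158). Porcn, the enzyme that attaches the lipid to Wnt proteins, averaged 7.30 ± 0.07 in TNE and 7.92 ± 0.08 in TPIN, with no overlap, and did not pass (adjusted p = 0.104).

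Next to Tcf7l2, 2 other factors of its family were measured, of which only Lef1 passed. Lef1 had 8.78, 7.99 and 7.92 in TNE and 7.32, 6.85 and 6.89 in TPIN, 2.31-fold higher in TNE (log2 difference 1.21, SE 0.33, limma adjusted p = 0.0387), a call that was lost without any 1 array other than TNE replicate 3. Tcf7l1, mainly known as a repressor, had 8.81, 7.54 and 7.51 in TNE and 9.57, 9.62 and 8.82 in TPIN and did not pass (log2 difference -1.38, adjusted p = 0.0571). It passed as lower in 5 of 12 alternatives, among them those that left out TPIN replicate 3 or TNE replicate 1. The remaining nuclear genes, cofactors such as Bcl9l, Ctbp1 and the Tle corepressors, did not pass. Lower nuclear genes numbered 3 when TPIN replicate 3 was left out and 1 when TNE replicate 1 was.

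In the cytoplasm 1 of 17 genes passed: Ccdc88c, which binds Dishevelled, averaged 8.90 ± 0.43 in TNE and 7.59 ± 0.15 in TPIN (limma adjusted p = 0.0230), and lost its call when TPIN replicate 1 or 2, or TNE replicate 2 or 3, was left out. Lower cytoplasmic genes numbered 4 when TPIN replicate 3 was left out and 1 when TNE replicate 3 was. Of 12 genes of planar polarity and calcium signalling, Nfatc4, a calcineurin-regulated transcription factor, was 4.78-fold lower in TNE, at 7.71, 7.08 and 7.22 in TNE and 9.62, 9.66 and 9.50 in TPIN (log2 difference -2.26, SE 0.28, adjusted p = 0.00260). Celsr2, a cadherin of the polarity system, averaged 8.40 ± 0.54 in TNE and 7.15 ± 0.22 in TPIN (adjusted p = 0.0388), and its call was lost without any 1 array other than TNE replicate 1. Lower genes in that list numbered 3 when TPIN replicate 3 was left out and 2 when TNE replicate 1 or 3 was.

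Of 18 measured genes known as targets of beta-catenin, 2 were higher, 2 lower and 14 did not pass, shares near the 10.3% and 10.2% of all genes. Their median difference was -0.52, and 12 of the 18 had a negative difference. Axin2, a feedback inhibitor often read as a sign of pathway activity, had 7.65, 7.91 and 7.93 in TNE and 7.61, 6.99 and 7.26 in TPIN. Its arrays did not overlap, by a margin of 0.04, and it did not pass (log2 difference 0.54, SE 0.28, limma adjusted p = 0.190). The lower genes were Ccnd2, cyclin D2, 15.6-fold lower at 8.14 ± 0.96 in TNE and 12.11 ± 0.02 in TPIN, and Ccn4, a secreted matricellular protein, 5.59-fold lower at 7.35 ± 0.25 in TNE and 9.83 ± 0.31 in TPIN (adjusted p = 0.00221 for each). Both calls held without any 1 array. Higher were Lef1, as above, and the neural adhesion molecule Nrcam, 4.11-fold (adjusted p = 0.0460), whose call was lost when TNE replicate 1 or any TPIN array was left out, and with the arrays centred on the median (adjusted p = 0.0531). Higher targets numbered 0 in each of those 4 leave-outs and 1 when TNE replicate 2 was left out. Ccnd1 had 12.44, 10.07 and 8.00 in TNE and 11.49, 11.57 and 11.71 in TPIN, and Myc had 10.30, 9.88 and 7.09 in TNE and 9.34, 11.10 and 9.27 in TPIN, so TNE spread widely for both (adjusted p = 0.294 and 0.507). Ccnd1 passed as lower without TNE replicate 1 (adjusted p = 0.0237), when 4 targets were lower.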

How the data were processed

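Total RNA of 6 cultures (3 TNE, 3 TPIN) was labelled with biotin and hybridised to single-colour arrays, per the labels' protocols. The deposited log2 expression values come from RMA, per the submitters' processing notes, with its version not given in the sources used here. In all, 10361 rows were deposited, which are part of the array, with a median range over arrays of 1.47. How these rows were selected is not stated, so shares and ranks over all genes hold for these genes only. Of the 9496 rows with 1 symbol, the brightest row was kept for 6 genes with several, leaving 9490 genes. Precision is limited by the number of arrays.

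Groups came from the titles, and replicates were numbered in series order. No label says that replicates are separate mice, so p-values measure only the spread between these cultures, possibly technical. The test was limma 3.58.1 in R 4.3.3 (TNE minus TPIN, all 6 arrays, two-sided, Benjamini-Hochberg over all genes, threshold 0.05). It was also run on 10 simulated data sets, each with 200 changed genes and independent errors. Those settings differ from these data, where 1941 of 9490 genes passed, so the simulations do not show that the calls hold here. Array medians were 8.83 to 9.12. No label names a batch. Each title ends in a different code of unstated meaning, which may be a date, so batches could not be formed or tested.

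The 6 genes and all lists were chosen with earlier results of these data known. Named were the 6 genes, the measured ligands, antagonists and receptors, up to 5 genes past the threshold in each other Wnt list together with a set of key genes, and the 3 genes nearest to each of the 6. Others are named as examples. Ctnnb1, Apc, Gsk3b, Tcf7 and Lgr5 had no row of their own in the table, so they could not be analysed.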

Additional observations from a re-analysis of the deposited data

How the results depend on the processing

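The differences of the named genes and the counts of calls by list were recomputed under up to 12 alternatives; distances between genes, counts of groups that do not overlap and mean levels of lists were not. The alternatives were leaving out each of the 6 arrays, quantile normalization of the arrays again, centring of arrays on the median, the mean of several rows of a gene, leaving out the dimmest 25% of genes, and a trended or a robust prior variance. The 6 chosen genes have values under 9 of them; since their groups do not overlap, leaving out an array could not turn their direction. Without 1 array the other Wnt genes gave 2 to 6 higher and 4 to 18 lower genes, and all genes gave 357 to 1311 higher and 475 to 1285 lower, while fibroblast markers gave 11 to 13 lower. With the dim genes left out, 3 other Wnt genes were higher, because 3 of the 6 (Celsr2, Lef1 and Nrcam) were among the genes removed. Of the 14 other Wnt genes that passed, 6 kept their call under every alternative (Fzd3, Tspan12, Tpbg, Nfatc4, Ccnd2 and Ccn4), and 8 lost it under at least 1. The groups of these 14 do not overlap, so that leaving out an array could not turn their direction. Of the 75 that did not pass, 24 did so under at least 1 alternative. Wls also lost its call with quantile normalization (adjusted p = 0.0506) and, like Ror2, with a robust prior variance. For the calls that changed, the cause was not tested. No paired analysis was possible because the labels give no replicate numbers that join TNE and TPIN samples. Without a background level in the table, differences from low values may be understated.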

Other observations

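Some Wnt genes that did not pass had 1 array far from the other 2 of its group. Rspo2 had 6.45 to 6.67 in TNE, while in TPIN it had 10.37 on replicate 3 and 6.30 and 7.09 on the other arrays. Igfbp4 had 11.22 on TNE replicate 3, against 7.71 and 6.73 on the other TNE arrays. Dkk2 had 7.28 on that same array, where Ccnd1 (8.00) and Myc (7.09) were also at their lowest. For Ccnd1 no single TNE array stood apart, with 12.44, 10.07 and 8.00. With 3 arrays a group, no test of such an array was made.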
